A study of Mus musculus with 6 samples.

Results

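Eicosanoid synthesis enzymes are the lipoxygenases, cyclooxygenases and their partner enzymes that turn polyunsaturated fatty acids into leukotrienes, hydroxy fatty acids and prostaglandins. The genes described here are Alox15, Alox5, Alox5ap, Alox12, Lta4h, Ltc4s, Ptgs2, Ptges and Hpgd, measured in mouse lung. They were taken from a list of 10 symbols, and every probe set whose platform annotation names one of them alone was used. This gave 16 of the 45101 probe sets on the array and 9 of the 18193 genes named there. Ptgs1, the constitutive cyclooxygenase, was the tenth symbol and was not analysed here. The genes were selected on the measured diet difference of Alox15 on these same arrays, so the diet differences of all 9 are given as descriptions. No p is given for them, and nothing is inferred from their calls, which are printed beside those of all genes.

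The samples were lung RNA of 6 mice, all labelled wild type, 3 fed a control diet and 3 fed a high fat diet, with 1 Affymetrix array per mouse. The labels name no altered gene or other treatment in either group, and the sources used here do not give the strain, sex or age of the mice or the composition and length of the diets. The labels number the mice of a diet as replicates 1 to 3. All 10 lung epithelial markers examined, among them the surfactant protein Sftpc and the club cell protein Scgb1a1, passed the brightness filter, and their summed signal ranged from 187679 to 297460 under the control diet and from 246936 to 276470 under the high fat diet.

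Arachidonic acid is held in membrane phospholipids and is set free by phospholipases A2. Lipoxygenases add oxygen to the free acid at a chosen carbon, and mouse Alox15 is the 12/15-lipoxygenase known from resident macrophages of the body cavities and from eosinophils. 5-Lipoxygenase, with its activating protein, starts the leukotriene branch, and cyclooxygenases start the prostaglandin branch, whose products the lung also clears from the blood and inactivates.

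Signals are the deposited MAS5 intensities, whose trimmed mean is 500 on every array. A log2 difference is the mean log2 signal of the high fat mice minus that of the control mice, and a fold is 2 raised to that power. A gene was called where limma's adjusted p over all 12689 tested genes was under 0.05, and each gene is represented by its brightest probe set. The median signal of an array was 143.3 to 150.3 under the control diet and 113.4 to 128.7 under the high fat diet. Pairs of arrays correlated at 0.945 to 0.962 within the control group, 0.951 to 0.961 within the high fat group and 0.902 to 0.938 across the groups, over log2 signals of probe sets that are no independent replicates.

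Alox15 had a low signal in every control lung and a high one in every high fat lung. The control signals were 104, 147 and 86.3 in replicates 1 to 3, and the high fat signals were 911, 1256 and 1481. The groups did not overlap, and the lowest high fat signal was 6.21 times the highest control signal. The means were 112 ± 31 and 1216 ± 287 (SD, n = 3 each), a 10.9-fold difference (log2 3.44, SE 0.25, 95% interval 2.87 to 4.01). On its own array, the Alox15 probe set was brighter than 40.4 to 49.6 percent of all probe sets in the control group and than 82.5 to 88.7 percent in the high fat group, a measure that does not depend on how the arrays were scaled. Its log2 difference ranked 2 among 12689 genes. One probe set names Alox15, so no other probe set checks it. In RNA from a whole tissue, more cells of one kind and more RNA per cell cannot be told apart, here and in every result that follows.

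**Figure D1:**
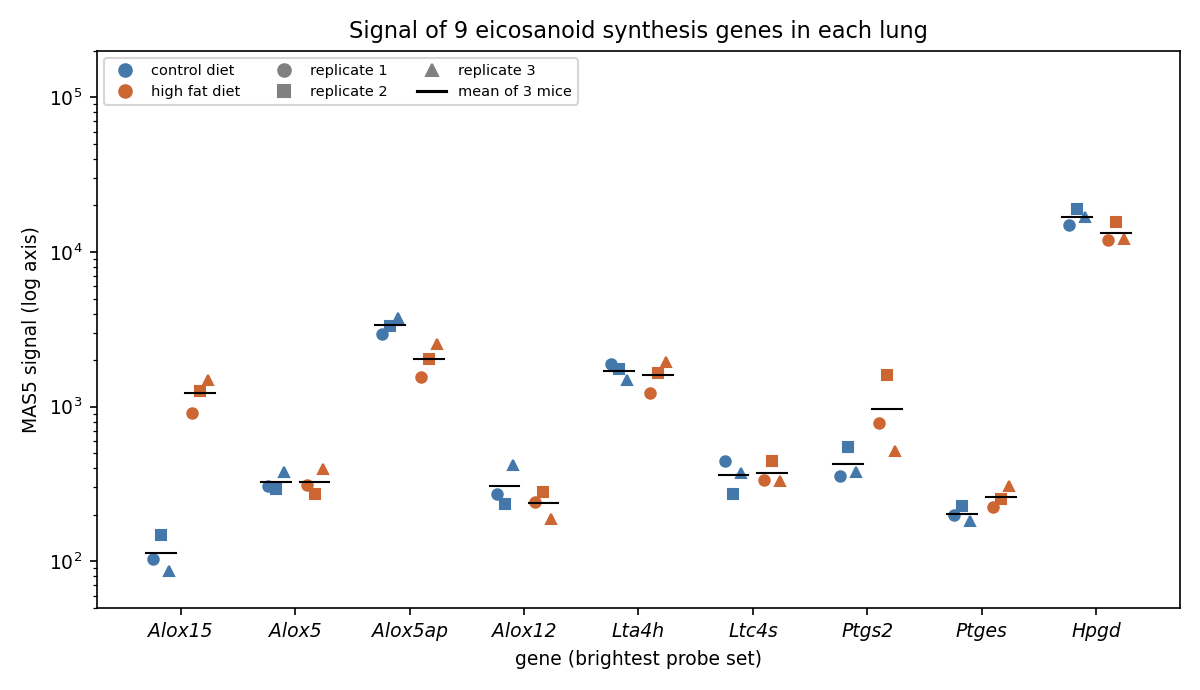
MAS5 signal (log axis) of the brightest probe set of each of the 9 genes in the lungs of 3 control and 3 high fat mice; each point is 1 mouse and each bar the mean of a group. The high fat points of Alox15 lie between 911 and 1481, above control points of 86.3 to 147, while for 7 of the 9 genes the groups overlap.

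The genes of the 5-lipoxygenase branch did not share the pattern of Alox15. Alox5, the 5-lipoxygenase itself, had signals of 308, 292 and 380 in the control lungs and 313, 271 and 395 in the high fat lungs. The ranges were almost the same, and the 95% interval of the log2 difference ran from -0.47 to 0.45 around -0.01. Alox5ap, the membrane protein that presents arachidonic acid to 5-lipoxygenase, had signals of 2966, 3318 and 3763 in the control lungs and 1544, 2045 and 2536 in the high fat lungs. All 3 high fat mice were below all control mice, with means of 3349 ± 399 and 2041 ± 496 (SD, n = 3 each), a high fat level of 0.6 times the control level (log2 -0.74, SE 0.18). With 1 mouse left out, its log2 difference stayed between -0.91 and -0.55.

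Further along that branch the diets overlapped on the brightest probe sets. Lta4h, the hydrolase that makes leukotriene B4, had signals of 1883, 1763 and 1484 in control and 1221, 1660 and 1942 in high fat mice on its brightest probe set. The high fat mice included both the lowest and the highest of the 6 values, and the log2 difference was -0.11 (95% interval -0.52 to 0.3). A dimmer tested probe set of Lta4h gave -0.12. Another, below the brightness filter, had signals of 75 to 85.7 in control and 15 to 38.2 in high fat mice, without overlap and with no interval. Ltc4s, the synthase that joins glutathione to leukotriene A4, had signals of 272 to 444 in control and 330 to 443 in high fat mice (log2 0.04, 95% interval -0.46 to 0.55).

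Alox12, the platelet-type 12-lipoxygenase, had signals of 271, 233 and 419 in control and 241, 282 and 189 in high fat mice. The groups overlapped, and the spread among control mice was wide, with a coefficient of variation of 32 percent against a median of 12.1 percent over all genes. Platelet and megakaryocyte markers had a summed signal of 3326, 3286 and 5629 in control and 4302, 5003 and 2659 in high fat mice. In both Alox12 and this sum, control replicate 3 was the highest control mouse and high fat replicate 3 the lowest high fat mouse. Of the 8 tested platelet markers 0 were called by limma, and the part of platelets in the Alox12 values was not tested. The second Alox12 probe set was below the filter, at 8.17 to 37.8 in control and 30.9 to 46.2 in high fat mice.

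In the prostaglandin branch, Ptgs2, the inducible cyclooxygenase, had a higher mean in high fat mice but with wide scatter. Its signals were 358, 551 and 376 in control and 779, 1613 and 518 in high fat mice. High fat replicate 3 lay below control replicate 2, so the groups overlapped, and high fat replicate 2 alone stood above 1000. The means were 429 ± 107 and 970 ± 572 (SD, n = 3 each), 2.06-fold, with a 95% interval from 1.15-fold to 3.68-fold. Its coefficient of variation among high fat mice was 58.9 percent, against a median of 14.2 percent over all genes, and without high fat replicate 2 its log2 difference went from 1.04 to 0.6.

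The dimmer probe set of Ptgs2 had signals of 161, 226 and 187 in control and 198, 327 and 146 in high fat mice, a log2 difference of 0.16. Replicate 2 was the highest mouse of each diet on both probe sets. Mesothelial markers were also highest in high fat replicate 2, as described further on, and their part in the Ptgs2 values was not tested.

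Ptges, the inducible synthase of prostaglandin E2, had 3 tested probe sets and a different sign among them. The brightest gave 200, 228 and 182 in control and 224, 252 and 306 in high fat mice (log2 0.35), and the others gave log2 differences of -0.06 and -0.37. All 3 intervals included 0, and the groups overlapped on each probe set.

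Hpgd encodes 15-hydroxyprostaglandin dehydrogenase, which begins the breakdown of prostaglandins and is abundant in lung. Its 2 probe sets differed in opposite directions. The bright one had signals of 14836, 19075 and 16944 in control and 11926, 15552 and 12168 in high fat mice, means of 16952 ± 2120 and 13216 ± 2027 (SD, n = 3 each) and a log2 difference of -0.36 (95% interval -0.71 to -0.01). The other had signals of 468, 770 and 551 in control and 1155, 1713 and 1122 in high fat mice, and its groups did not overlap (log2 1.16, 95% interval 0.65 to 1.67).

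Within each diet both Hpgd probe sets placed replicate 2 highest, while between the diets they differed in opposite directions. Of 5951 genes with at least 2 tested probe sets, 50 percent had differences of both signs. In 5.91 percent limma called a dimmer probe set whose sign was opposite to that of the brightest. Control probe sets at both ends of a transcript give a 3'/5' ratio, a sign of RNA integrity. This ratio was 0.743 to 0.795 in control and 0.854 to 0.957 in high fat mice for Gapdh, and for actin it was 1.194 to 1.437 and 1.503 to 1.546, with no overlap in either. Its part in the disagreement was not tested, so no direction is given for Hpgd. The part of this ratio in the other diet differences, that of Alox15 included, was not tested either.

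**Figure D2:**
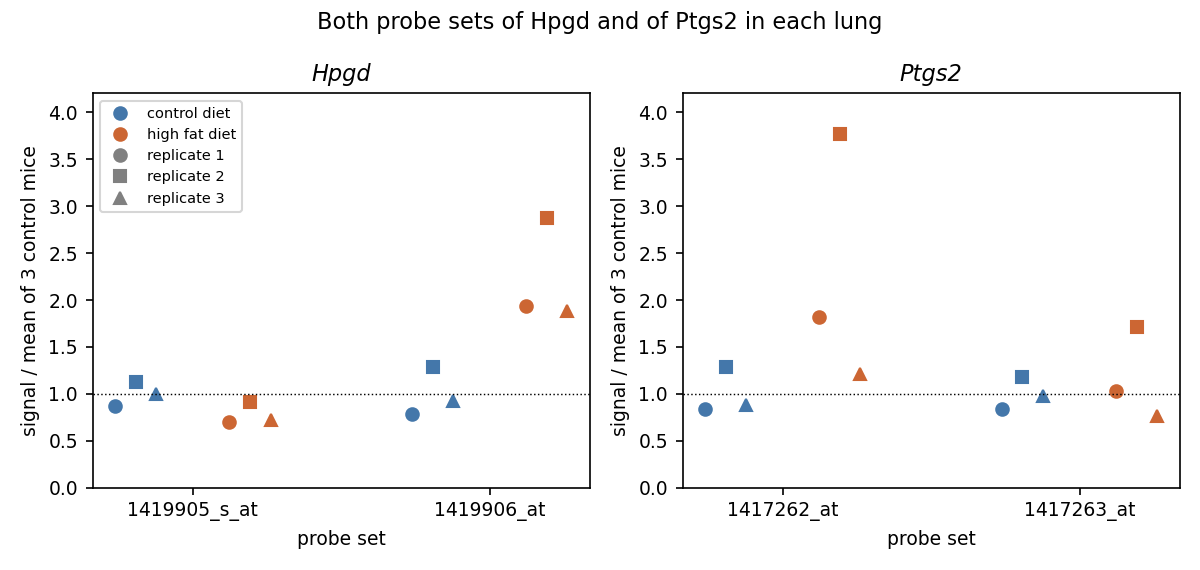
Signal of each probe set of Hpgd and Ptgs2 divided by its mean in the 3 control mice, with 1 point per mouse and a line at 1. The probe sets of Hpgd lie on opposite sides of the line in high fat mice (log2 -0.36 and 1.16), and replicate 2 is the highest mouse of each diet on all 4 probe sets.

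Of the 9 genes, 4 had a higher and 5 a lower mean log2 signal in high fat mice, and the median difference was -0.01, beside 0.06 over all tested genes, of which 56.4 percent were higher. For 6 of the 9 the difference was under 1.5-fold in either direction. Limma called 2 of them, Alox15 as higher and Alox5ap as lower, where 6.75 percent of all tested genes were called, 4.56 percent as higher and 2.2 percent as lower. Alox15 was called in all 6 fits with 1 mouse left out, and Alox5ap only in the fit without high fat replicate 3. Since the list was made with this contrast in view, nothing is read from these counts. The groups did not overlap for the same 2 genes, against 31.8 percent of all tested genes, of which 19.7 percent were higher and 12.1 percent lower in the high fat group. Among the 14 tested probe sets 3 were called and 3 did not overlap, against 12.9 and 36.2 percent of all tested probe sets, and among all 16 there were 4 without overlap, against 27.4 percent. All 9 genes had a probe set past the brightness filter, and 2 of the 16 probe sets were below it. Scaling bears on the small differences: centring every array on its median moved the median of all genes from 0.06 to 0.33, and Alox5 then stood at 0.27 and Lta4h at 0.17, both slightly below 0 as deposited. Alox15 was at 3.72 and Alox5ap at -0.46 with that scaling. Under it limma called Alox15, Ptgs2 and Ptges and no longer Alox5ap, beside 25.2 percent of all tested genes.

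**Figure D3:**
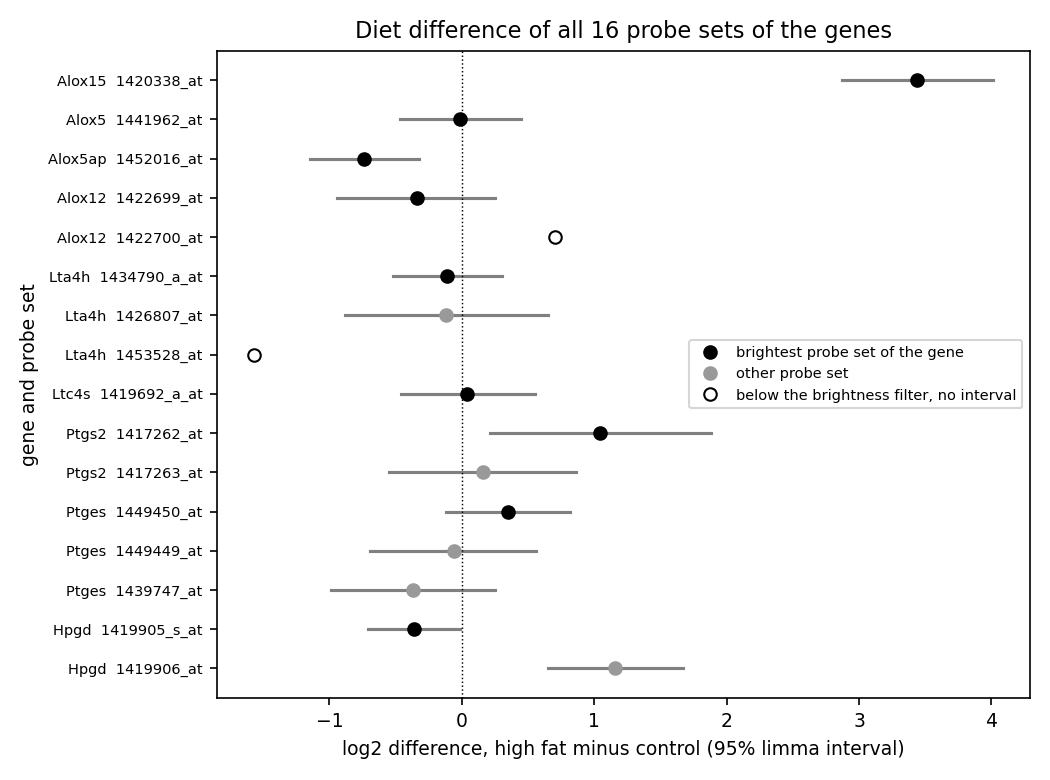
Log2 difference (high fat minus control) of all 16 probe sets, with 95% limma intervals for the 14 that passed the brightness filter and open circles for the 2 that did not. Alox15 lies at 3.44, apart from the other probe sets, and the 2 Hpgd probe sets lie on either side of 0.

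The genes around Alox15 on its chromosome did not share its difference where they were measured. By gene order in RefSeq's mouse assembly GRCm38.p6, 10 genes lie within 5 places of Alox15, and 4 of them had a probe set here. Alox12 is one of them. Alox12e, an epidermal lipoxygenase and the next annotated gene, had signals of 29.5 to 53.8 in control and 11 to 71.9 in high fat mice, below the filter. Pelp1 had a fold of 0.844 and Arrb2, which encodes beta-arrestin 2, a fold of 1.14, and neither was called (limma adjusted p = 0.528 and 0.51).

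The 5 genes whose log2 signals over the 6 arrays were most like those of Alox15 were Cnih4, Cdk18, Smarcc1, Ist1 and Clec16a, with Pearson correlations of 0.997, 0.996, 0.995, 0.994 and 0.992. Their folds were 1.64, 1.43, 1.51, 1.25 and 1.81, far smaller than that of Alox15. Over 6 arrays in 2 groups such a correlation mostly follows the diets, and 257 of 12268 genes exceeded 0.95.

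Other genes of eicosanoid metabolism were collected in 9 lists by role, which overlap in Ptgr1. They hold 110 symbols, some of them further names of a listed gene. Of these, 97 matched a measured gene and 70 passed the brightness filter. Limma called 8 of the 70 (11.4 percent, beside 6.75 percent of all tested genes), with 5 higher and 3 lower under the high fat diet. With arrays centred on the median it called 25 (35.7 percent), 23 of them higher. That scaling called 25.2 percent of all tested genes, 95.4 percent of them higher. Over the 70 genes the median log2 difference was 0.18 as deposited, beside 0.06 over all tested genes. The counts called in each list below stand beside 4.56 percent of all tested genes called higher and 2.2 percent called lower. Genes without overlap stand beside 19.7 percent of all tested genes higher and 12.1 percent lower without overlap. On their brightest probe sets, the 5 called higher were Ptger3, Plaat3, Pla2g6, Mboat7 and Gpx3, and the 3 called lower were Cyp4f18, Fpr2 and Gpr18. Of the 8, Ptger3 alone kept its call whichever mouse was left out, while Plaat3 kept it in 3 of 6 such fits, Gpx3, Fpr2, Gpr18 and Cyp4f18 in 1 of 6, and Mboat7 and Pla2g6 in 0 of 6. The number called was 1 without any one of the 3 control mice (1.43 to 1.45 percent, beside 1.33 to 2.86 percent of all tested genes). It was 3 to 5 without a high fat mouse (4.23 to 7.14 percent, beside 3.17 to 4.5 percent of all tested genes).

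**Figure D4:**
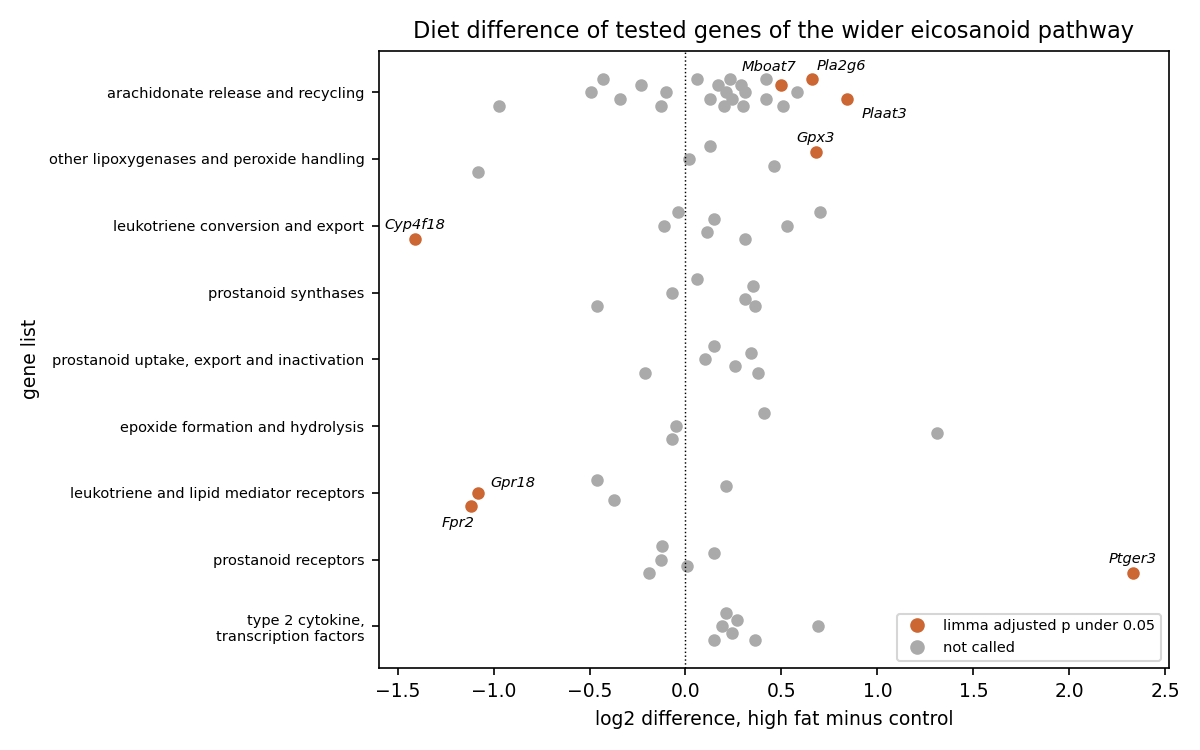
Log2 difference (high fat minus control) of the tested genes of 9 lists of the wider eicosanoid pathway; each point is 1 gene and the named, coloured points are the 8 genes called by limma. Ptger3 lies farthest to the right at 2.33 and Cyp4f18 farthest to the left at -1.41.

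Ptger3 encodes EP3, a receptor for prostaglandin E2 that lowers cyclic AMP and is abundant in adipocytes. Its signals were 115, 90.9 and 96.2 in control and 592, 561 and 383 in high fat mice. Every high fat mouse was far above every control mouse, with means of 101 ± 12.7 and 512 ± 112 (SD, n = 3 each; 5.02-fold, limma adjusted p = 0.00277). A second probe set of Ptger3 was below the filter, at 6.17 to 31.5 in control and 2.16 to 4.83 in high fat mice, and with the mean of both the log2 difference was 0.29 (limma adjusted p = 0.738). Of 6 tested prostanoid receptors, Ptger3 rose and 0 fell. The others included Ptger2 (0.878-fold), Ptger4 (1.11-fold) and the thromboxane receptor Tbxa2r (0.915-fold), none of them called (limma adjusted p = 0.56, 0.727 and 0.695). Adipocyte markers were higher in the same mice, as given further on, and their part in the Ptger3 difference was not tested.

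Among receptors for leukotrienes and other lipid mediators, 0 of 5 tested genes rose and 2 fell (median log2 -0.46). Fpr2, a formyl peptide receptor of myeloid cells that also binds lipoxin A4, had means of 1102 ± 143 and 536 ± 199 in control and high fat mice (SD, n = 3 each), and its limma adjusted p was 0.0488. All 7 tested neutrophil markers had log2 differences below 0 (median -1.47), with Ltf at only -0.03. Their summed signal overlapped between the diets, at 5893 to 16397 in control and 2386 to 7531 in high fat mice. The part of neutrophil markers in the Fpr2 difference was not tested. Gpr18, a receptor of lymphoid and myeloid cells linked to resolvin D2, had signals of 677, 696 and 539 in control and 292, 235 and 392 in high fat mice (0.473 times, limma adjusted p = 0.0247). Neither gene overlapped between the diets, beside 12.1 percent of all tested genes that were lower without overlap. Cysltr1, the cysteinyl leukotriene receptor, was at 0.776 times and was not called (limma adjusted p = 0.44), and the leukotriene B4 receptor Ltb4r1 was below the filter.

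Of 8 tested genes of leukotriene conversion and export, 0 rose and 1 fell (median log2 0.13). This was Cyp4f18, the neutrophil hydroxylase of leukotriene B4, with signals of 336, 422 and 537 in control and 281, 112 and 129 in high fat mice (0.376 times, limma adjusted p = 0.0484). The part of the lower neutrophil markers in the Cyp4f18 difference was not tested. The microsomal transferase Mgst2, which can also make leukotriene C4, was 1.62-fold higher in the mean and was not called (limma adjusted p = 0.106).

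Of 24 tested genes that release or recycle arachidonic acid, 3 rose and 0 fell on their brightest probe sets (median log2 0.22). Plaat3, the main phospholipase A2 of adipose tissue, had signals of 1335, 1616 and 1392 in control and 3223, 2195 and 2449 in high fat mice (1.79-fold, limma adjusted p = 0.0205), with no overlap. The part of the adipocyte markers, which were higher in the same mice, in the Plaat3 difference was not tested. Mboat7, which returns arachidonic acid to phosphatidylinositol, had means of 1082 ± 41.2 and 1531 ± 99.5 in control and high fat mice (SD, n = 3 each), and its limma adjusted p was 0.0361. Pla2g6, a calcium-independent phospholipase, was 1.58-fold higher on its brightest probe set (limma adjusted p = 0.049). A dimmer probe set of Pla2g6 went the other way, with signals of 190 to 261 in control and 89.8 to 103 in high fat mice. Over all tested probe sets limma called both, with adjusted p = 0.0346 for the brightest and 0.0212 for the dimmer probe set. No direction is therefore given for Pla2g6. When every probe set was averaged, dim ones included, the log2 difference of Pla2g6 was -0.57 and that of Mboat7 -0.32, neither called (limma adjusted p = 0.35 and 0.694). Pla2g4a, the cytosolic phospholipase A2 that supplies most eicosanoid synthesis, was 1.43-fold higher in the mean with no overlap, and was not called (limma adjusted p = 0.0687).

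Of 5 tested genes of other lipoxygenases and peroxide handling, 1 rose and 0 fell (median log2 0.13). Gpx3, the secreted glutathione peroxidase, had signals of 14103, 16815 and 17492 in control and 25229, 24845 and 27425 in high fat mice (1.61-fold, limma adjusted p = 0.0242). Aloxe3, an epidermal lipoxygenase, was at 0.471 times with no overlap and was not called (limma adjusted p = 0.129), while Alox8 and Alox12b were below the filter, although Alox12b read 670 in control replicate 1. On their brightest probe sets, limma called 0 of 6 prostanoid synthases and 0 of 6 genes of prostanoid transport and inactivation (medians 0.18 and 0.21). It called 0 of 4 genes of epoxide metabolism (median 0.18). A dimmer probe set of the prostaglandin transporter Slco2a1 was at 1841 to 2454 in control and 1083 to 1292 in high fat mice, without overlap. Limma called it over all tested probe sets (adjusted p = 0.00967). The other Slco2a1 probe sets, the brightest included (0.862 times), overlapped. Prostacyclin synthase Ptgis (1.24-fold), carbonyl reductase Cbr1 (1.28-fold) and prostaglandin reductase Ptgr2 (1.3-fold on its brightest probe set) were higher in every high fat mouse than in any control mouse. So were 19.7 percent of all tested genes, and these 3 were not called (limma adjusted p = 0.181, 0.125 and 0.109). The other tested Ptgr2 probe sets overlapped. An untested Ptgr2 probe set was lower without overlap, at 74.8 to 108 in control and 18.7 to 74.2 in high fat mice. Ephx2, the soluble epoxide hydrolase, had signals of 191, 239 and 234 in control and 922, 300 and 583 in high fat mice, and was not called (limma adjusted p = 0.0619).

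The cytokines IL-4 and IL-13 are known inducers of Alox15 in macrophages. Il4 and Il13 were below the brightness filter, with signals up to 44.5 and 13.6. Of 7 tested genes of that signalling and of transcription factors linked to Alox15, limma called 0, and all 7 log2 differences were above 0 (median 0.24), as were 56.4 percent of all tested genes. Pparg was at 243 ± 30 in control and 390 ± 40.3 in high fat mice (SD, n = 3 each, limma adjusted p = 0.0571). Rxra was 1.28-fold and Stat6 1.16-fold higher in the mean (limma adjusted p = 0.152 and 0.286). On their brightest probe sets all 3 were higher with no overlap, beside 19.7 percent of all tested genes. Dimmer tested probe sets of Rxra (1.15-fold) and Stat6 (0.941 times) overlapped. Gata6, the factor of cavity macrophages, was 1.18-fold higher in the mean, with overlap. The part of the adipocyte markers, given further on, in the Pparg difference was not tested.

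Markers of the cell types known for these enzymes moved in several directions, and their part in the values of Alox15 and Alox5ap was not tested. The counts of markers called stand beside 4.56 percent of all tested genes called higher, 2.2 percent called lower and a median log2 difference of 0.06. Of 9 eosinophil markers apart from Alox15, 5 were measured. Only Siglecf, which alveolar macrophages share, passed the filter, and it fell to 0.264 times its control level, with means of 221 ± 21.5 and 61.3 ± 23.5 (SD, n = 3 each), at a limma adjusted p of 0.0166. Its high fat mean was below the filter signal of 70.3, so Siglecf passed only through its control signals. Nothing further is read from its call. The eosinophil peroxidase Epx (4.41 to 24.6), Ccr3 (2.3 to 21.3) and Il5ra (3.77 to 38.2) were dim in all 6 mice, and the granule protein Prg2 was at 51.3 to 210 in control and 22.5 to 25.6 in high fat mice.

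Of 12 tested alveolar macrophage markers, 4 fell (Siglecf, Krt79, Atp6v0d2 and Cd68, at 0.264, 0.403, 0.443 and 0.465 times) and 1, Cidec, rose 3.1-fold, which adipocytes express as well (median log2 -0.56). The summed signal of the list was 29433, 24542 and 25085 in control and 13939, 19305 and 28694 in high fat mice. Chil3, a secreted chitinase-like protein, took the largest part of it, with 4856, 7652 and 17288 in the high fat mice. Without Chil3 the sums were 15126, 12646 and 12790 in control and 9083, 11654 and 11407 in high fat mice, lower with no overlap. Of 7 tested neutrophil markers, S100a9 and Mmp8 fell (0.263 and 0.277 times) and 0 rose, and all 7 log2 differences were below 0 (median -1.47). Their sum was 5893, 6602 and 16397 in control and 7531, 2386 and 4052 in high fat mice, of which lactoferrin, Ltf, gave 5512 in high fat replicate 1. Mmp8 was at 51.1 to 58.2 in high fat mice and, like Siglecf, passed the filter only through its control signals.

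Of 12 tested markers of macrophages of the body cavities, other than Alox15 and Prg4, 3 rose and 0 fell (median log2 0.71). Cxcl13, also a stromal chemokine, rose 3.47-fold, the complement receptor Vsig4 2.45-fold and the ficolin Fcna 2.48-fold (limma adjusted p = 0.00512, 0.0318 and 0.0391). Vsig4 was at 55 to 73.7 in control and 147 to 165 in high fat mice. Its control mean of 65.2 was below the filter signal of 70.3. It therefore passed the filter only through its high fat signals, and nothing further is read from its call. The sum of the list overlapped between the diets, at 9574 to 12234 and 9112 to 12450, and Icam2, which endothelium shares, took the largest part of it. Icam2 itself was lower with no overlap, at 5891 to 8101 in control and 3200 to 5747 in high fat mice. It was at 0.649 times and was not called (limma adjusted p = 0.112). Without Icam2 the sums were 3682 to 4133 and 5912 to 7853, higher with no overlap. Prg4, which encodes lubricin and is made by such macrophages and by mesothelium, had signals of 137, 283 and 196 in control and 1457, 1797 and 2966 in high fat mice. As with Alox15, replicate 2 was the highest control mouse, and among high fat mice replicate 3 was the highest and replicate 1 the lowest. The lowest control mouse differed, replicate 1 for Prg4 and replicate 3 for Alox15. Whether the 2 genes share a source was not tested.

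Of 9 tested mesothelial markers other than Prg4, 3 rose (Upk3b 2.65-fold, Lrrn4 2.02-fold and Wt1 2.74-fold) and 0 fell (median log2 0.93). Their sum was 11161 to 14072 in control and 15684, 24817 and 14867 in high fat mice. Replicate 2 was thus the highest high fat mouse for mesothelial markers and for Ptgs2, and replicate 3 for Alox15.

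Of 7 tested markers of alternatively activated macrophages, 1 rose and 0 fell (median log2 0.67). Retnla, a secreted protein of such macrophages that airway and adipose cells also make, had signals of 6136, 1883 and 1813 in control and 8078, 9127 and 17055 in high fat mice (limma adjusted p = 0.0396). Arg1 was below the filter, although it read 676 in control replicate 1. Of 8 tested adipocyte markers, 6 rose and 0 fell (median log2 2.33), and their sum was 3048 to 6926 in control and 34663, 24154 and 24753 in high fat mice. Adipocyte sums and Alox15 were both higher in every high fat mouse than in any control mouse. Among the high fat mice, replicate 1 had the highest adipocyte sum and the lowest Alox15 signal. The part of adipocytes in the Alox15 values was not tested.

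**Figure D5:**
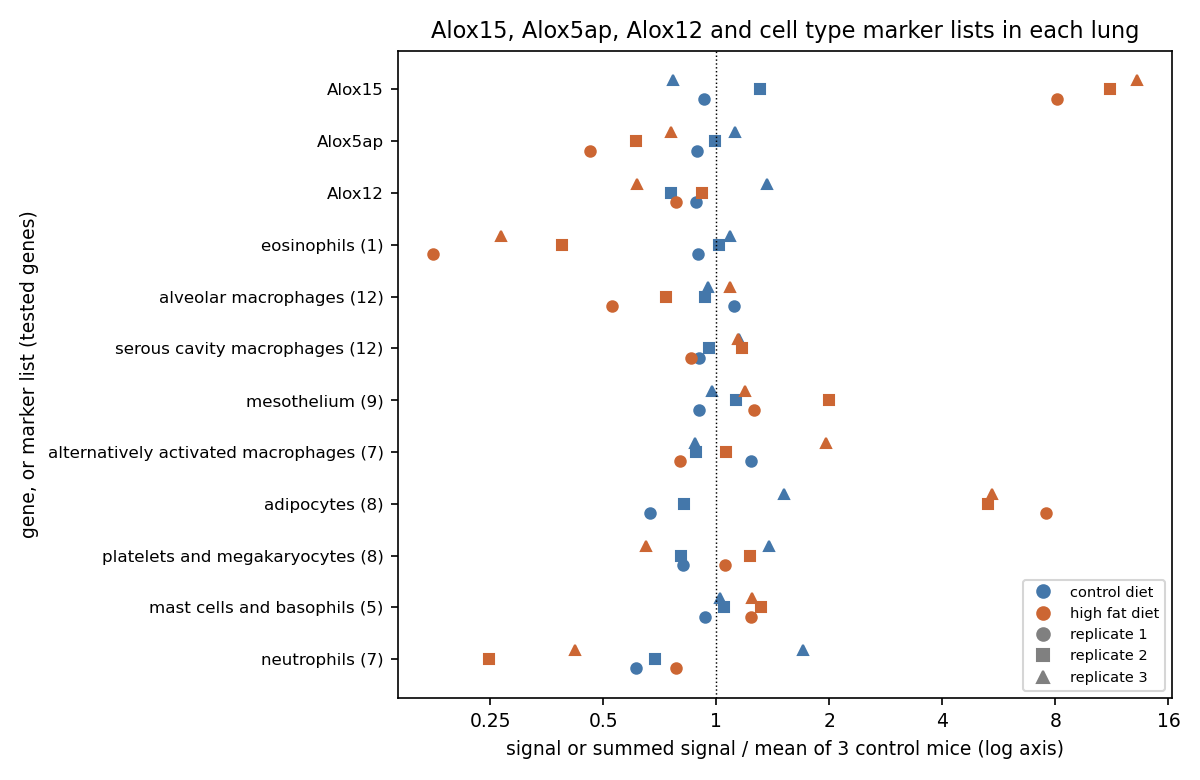
Signals of Alox15, Alox5ap and Alox12 and summed signals of the tested markers of 9 cell types in each mouse, divided by the mean of the 3 control mice (log axis; number of tested markers in brackets). Adipocyte sums are above all control sums in all high fat mice, whereas the sums for alveolar and cavity macrophages overlap between the diets. Each has 1 dominant gene, Chil3 and Icam2, without which the sums do not overlap. Icam2 itself is lower in high fat mice, against the rest of its list's sum.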

How the data were processed

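The deposited signal intensities come from MAS5, per the submitters' processing notes, and the sources used here state neither its version nor its settings. Values are linear, on arrays scaled to a common trimmed mean. Annotation symbols were checked by Entrez identifier against RefSeq (0 changed). Signals below 1 were set to 1 and log2 taken. Probe sets whose mean log2 signal reached the 40th percentile (6.14, a signal of 70.3) were tested, 27022 in all. The test was limma (version 3.58.1, R 4.3.3) with an intensity trend, two-sided, Benjamini-Hochberg adjusted over 12689 genes and checked on simulated data. Genes named are the listed enzymes, pathway genes called or next by p, up to 3 per list, chromosomal neighbours, the 5 most alike genes, and markers. Second probe sets, pathway genes below the filter and Slco2a1 fall outside this rule, as they were named after their values were seen. Marker sums without each list's brightest gene were added after seeing the data. Members and lists were chosen with earlier results of these data known. Nothing states that the mice were housed or processed separately, so p-values measure the spread between these samples. The mice's sample numbers lie in separate ranges for the diets, so any batch that follows them cannot be told apart from diet. The 3'/5' ratios of Gapdh and actin did not overlap between the diets, and their part in the diet differences was not tested. The 3 arrays per group limit the precision. Alternatives changed scaling, low values, filter, variance model, array weights, probe set summary, replicate block and mice.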

Additional observations from a re-analysis of the deposited data

How the results depend on the processing

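Over 17 alternatives the log2 difference of Alox15 was 3.11 to 3.72, that of Alox5ap -0.91 to -0.46 and that of Ptgs2 0.6 to 1.42, all with the sign as reported. Alox5, Alox12, Lta4h, Ltc4s, Ptges and Hpgd changed sign under at least 1 alternative, Hpgd to 0.4 when its probe sets were averaged. Where calls changed, the cause was not tested. Centring arrays on the median called 3197 genes in all (95.4 percent of them higher, against 67.4 percent as deposited), 25 pathway genes (23 higher, median 0.46) and 3 of the 9 enzymes (Alox15, Ptgs2 and Ptges, but not Alox5ap). With no filter 1 enzyme and 5 pathway genes (1 lower) were called. EBayes without trend called 136 genes, 1 enzyme and 1 pathway gene (1 higher, 0 lower). Averaging every probe set per gene, these counts were 472, 1 and 2 (1 higher, 1 lower), and Mboat7 (-0.32) and Pla2g6 (-0.57) reversed. With 1 mouse left out, 170 to 570 genes were called, 1 to 2 enzymes and 1 to 5 pathway genes (1 to 3 higher, 0 to 2 lower); Alox5ap was called in 1 of these 6 fits. Without replicate 1 of both diets the counts were 343, 1 and 3 (1 higher). With the replicate number as a block, 737 genes, 3 enzymes and 5 pathway genes (3 higher) were called. The numbers share no stated pairing, and deviations of same-numbered mice correlated at 0.17, 0.11 and -0.04. Signals below about 70.3 limit Alox12e, Il4, Il13 and the second Ptger3 probe set.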

Other observations

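Hdc, the enzyme that makes histamine, was higher in every high fat mouse than in any control mouse, with signals of 1219, 1056 and 1036 under the control diet and 2567, 2438 and 2671 under the high fat diet. It rose 2.32-fold (limma adjusted p = 0.00218), and a second probe set was 1.43-fold higher in the mean. It belongs to the list of mast cell and basophil markers, of which 5 of 10 passed the brightness filter, 1 rose and 0 fell, and 3 of the 5 were above 0 (median log2 0.34). Cma1 (1.42-fold) and Gata2 (1.26-fold) were higher in the mean and Kit (0.828-fold) lower, none of them called on its brightest probe set. A second Kit probe set was at 584 to 722 in control and 257 to 363 in high fat mice, without overlap (0.48 times). Limma called it over all tested probe sets (adjusted p = 0.0107). A second Gata2 probe set was at 0.968 times with overlap. Below the filter, a probe set of Ms4a2 was at 42.6 to 64.6 in control and 1.74 to 10.5 in high fat mice. The other Ms4a2 probe set (0.382 times) and Fcer1a (0.782 times) overlapped. The mast cell protease Mcpt4 (45.5 to 49.9 in control and 6.61 to 12.4 in high fat mice) and the basophil protease Mcpt8 (14.2 to 64.4 and 3.4 to 10.2) were below the filter, as was the tryptase Tpsb2, whose probe sets were 1.37-fold and 5.04-fold higher in the mean with overlap. Cpa3, the mast cell carboxypeptidase, was at 96 to 131 and 12.4 to 98.2 and was not called. The part of these cells in the Hdc difference was not tested.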
